A study of Mus musculus with 7 samples.

Results

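The transcription factors *Dlx1*, *Dlx2*, *Dlx5*, *Sp8*, *Sp9*, *Emx2*, *Lhx2*, *Otx2* and *Six3*, which pattern the forebrain, were read in bulk RNA-seq of 2 mouse glioblastoma (GBM) models. These 9 genes were taken by name from a table of 49492 genes. NPCTKO GBMs (4 samples) arose from embryonic neocortical precursors that were electroporated in utero with piggyBac plasmids carrying Cas9, luciferase, an EGFP or DsRed label and guide RNAs that target *Trp53* and *Nf1* among others. Their dissociated EGFP+ or DsRed+ cells were sorted before RNA isolation. NSCHRas-shp53 GBMs (3 samples) followed injection of lentiviruses, with a hairpin RNA against *Trp53* and constitutively active human *HRAS*, into the ventricular-subventricular zone of the adult brain, and were read as whole tissue. Both models thus lose *Trp53* function by design, and the labels give C57BL/6 mice aged 3 months for all 7 samples. Both models started in the forebrain, NPCTKO from its dorsal wall, and no sample of non-tumor brain was analysed here. Since 1 model was sorted and the other was not, an effect of the model and an effect of sorting cannot be told apart.

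The forebrain is divided early into territories, each set up by its own combination of transcription factors. In the ventral telencephalon (subpallium), homeodomain factors of the Dlx family and the zinc finger factors Sp8 and Sp9 act in the precursors of GABAergic neurons of the striatum, cortex and olfactory bulb, and neuroblasts born in the adult ventricular-subventricular zone keep several of them on. In the dorsal telencephalon (pallium), the homeodomain factor Emx2 and the LIM homeodomain factor Lhx2 specify the cortex and hippocampus and are used by neural stem cells and glia, whereas Otx2 and Six3 mark the anterior neural plate and later the choroid plexus, the ventral forebrain or the ependyma.

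The total counts were 15002873 to 19247326 in NPCTKO and 17529054 to 19840860 in NSCHRas-shp53 samples, so that 3 counts, taken as the floor, corresponded to 0.130 to 0.234 CPM (counts scaled to the library size and normalized by TMM). This floor covers counting error only. *Trp53* was at 91.8 to 200.4 CPM in NPCTKO and 54.8 to 82.2 CPM in NSCHRas-shp53 samples, *Nf1* at 41.6 to 229.7 against 98.2 to 133 CPM, and mouse *Hras* at 25.0 to 121 against 33.9 to 52.4 CPM. Such gene totals show neither an edit nor a hairpin nor the human transgene. NPCTKO samples 1 and 2 leaned towards GC-rich transcripts, with a Spearman correlation across genes of 0.570 and 0.492, against -0.375 and -0.355 in samples 3 and 4. The study speaks of the samples as separate GBMs but does not tie them to mice, so the p-values measure the spread between these samples.

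In mm10, which is GRCm38, the members lay on 6 chromosomes. *Sp8* spanned chr12:118846329-118852578, *Otx2* chr14:48657679-48667644, *Emx2* chr19:59458372-59465357, *Six3* chr17:85613608-85629302 and *Dlx5* chr6:6877805-6882085. Chromosome 2 held *Lhx2* (chr2:38339281-38369733), the neighbouring *Dlx1* (chr2:71528113-71533981) and *Dlx2* (chr2:71543408-71546754), and *Sp9* (chr2:73271925-73284706). In the count table, genes that lie wholly inside another gene had 0 counts, which was the case for *Dlx1* inside *Dlx1as* on the opposite strand. *Dlx1* was therefore read from the FPKM values alone. Of the span of *Six3*, 41.8% was shared with other genes, against 17.6% for *Lhx2*, 12.5% for *Sp9*, 3.78% for *Emx2* and 0% for *Dlx2*, *Dlx5*, *Sp8* and *Otx2*.

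Promoters of 8 of the 9 members, all but *Dlx5*, were found in the RefSeq table (GRCm38.p6), and the 250 bases before the most upstream start are shown for the 4 whose window holds no annotated exon. They are *Sp8* (chr12:118846079-118846328, plus strand) and *Otx2* (chr14:48667645-48667894, minus strand), the members nearest to absent in NPCTKO samples, *Lhx2* (chr2:38339031-38339280, plus strand), the most abundant member, and *Dlx2* (chr2:71546755-71547004, minus strand), which was not called between the models. The *Otx2* window lies in an intron of longer *Otx2* models in GENCODE. Capitals mark matches, on either strand, to TAATTA (the core bound by many homeodomain proteins, its own reverse complement), TAATCC or its complement GGATTA (the core bound by Otx proteins), and GGGCGG or its complement CCGCCC (the GC box bound by Sp proteins).
Sp8: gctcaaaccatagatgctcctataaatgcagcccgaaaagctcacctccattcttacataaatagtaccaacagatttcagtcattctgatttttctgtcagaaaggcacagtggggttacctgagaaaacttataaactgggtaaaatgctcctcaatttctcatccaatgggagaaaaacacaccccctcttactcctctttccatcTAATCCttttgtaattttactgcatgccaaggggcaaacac
Otx2: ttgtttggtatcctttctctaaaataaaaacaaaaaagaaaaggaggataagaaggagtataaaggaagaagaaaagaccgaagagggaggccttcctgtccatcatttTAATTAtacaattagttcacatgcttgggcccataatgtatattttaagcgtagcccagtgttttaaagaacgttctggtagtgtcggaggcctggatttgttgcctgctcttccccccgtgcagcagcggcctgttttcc
Lhx2: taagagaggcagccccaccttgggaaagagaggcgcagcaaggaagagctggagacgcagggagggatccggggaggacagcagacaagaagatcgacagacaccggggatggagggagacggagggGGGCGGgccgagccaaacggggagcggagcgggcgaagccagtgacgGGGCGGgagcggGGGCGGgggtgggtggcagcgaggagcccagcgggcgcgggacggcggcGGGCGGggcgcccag
Dlx2: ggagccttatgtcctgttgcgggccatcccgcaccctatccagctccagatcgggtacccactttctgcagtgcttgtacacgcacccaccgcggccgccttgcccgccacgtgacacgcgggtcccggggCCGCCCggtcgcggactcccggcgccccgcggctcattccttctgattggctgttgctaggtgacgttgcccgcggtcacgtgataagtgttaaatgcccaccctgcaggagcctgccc

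The windows fell into 2 kinds. Those of *Sp8* and *Otx2* had a GC content of 40.8% and 42.0% with 1 and 6 CG dinucleotides, below the median of 52.0% over the promoters of 27025 genes. Those of *Lhx2* and *Dlx2* had a GC content of 72.8% and 66.4% with 25 and 24 CG dinucleotides. TAATCC or its complement occurred 1 time in the *Sp8* window and in 6.37% of all windows of this length. TAATTA occurred 1 time in the *Otx2* window and in 4.91% of all windows. The GC box occurred 4 times in the *Lhx2* window, 1 time in the *Dlx2* window and in 33.0% of all windows. These matches describe the letters and not binding.

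The forebrain factors were higher in NSCHRas-shp53 than in NPCTKO GBMs for 6 of the 9 members, and 0 were called lower by edgeR (0 at an unadjusted p under 0.05, and 0 by DESeq2 or limma). *Sp8*, *Otx2*, *Emx2*, *Six3*, *Sp9* and *Lhx2* were called higher by edgeR's quasi-likelihood test (Benjamini-Hochberg adjusted p under 0.05 over 16091 genes), *Dlx2* and *Dlx5* were tested and not called, and *Dlx1* had no counts. Over all genes tested, 7.77% were called higher and 5.28% lower, and the median log2 fold change was -0.10. The same 6 members did not overlap in CPM between the models, which held for 16.3% of the genes tested in this direction. *Sp8*, *Sp9* and *Otx2* passed the filter on low counts (about 0.570 CPM before TMM in 3 samples) only through the NSCHRas-shp53 samples, so that being tested already meant a difference for them. *Emx2*, *Lhx2* and *Six3* passed it in both models. The fold changes are in the direction NSCHRas-shp53 minus NPCTKO throughout.

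**Figure D1:**
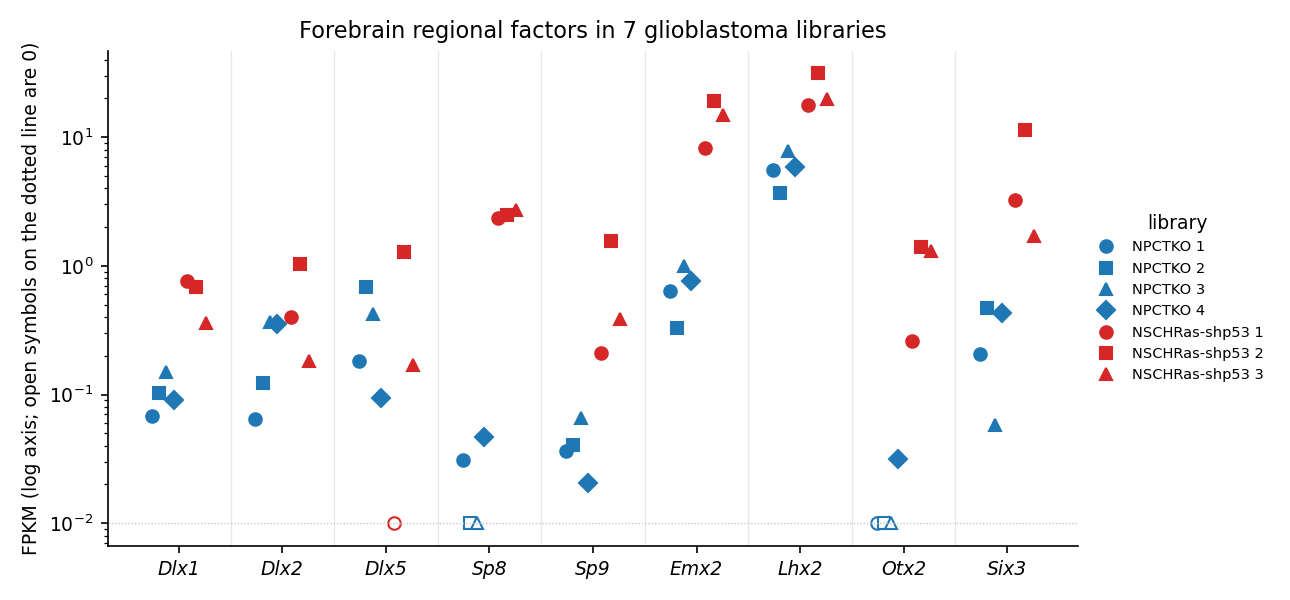
FPKM (log axis) of the 9 factors in each of the 7 libraries, NPCTKO in blue and NSCHRas-shp53 in red, with a symbol per replicate number and open symbols for 0. *Sp8*, *Otx2*, *Emx2*, *Lhx2*, *Six3*, *Sp9* and *Dlx1* had their 3 red symbols above the 4 blue ones, whereas those of *Dlx2* and *Dlx5* overlapped.

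Among the subpallial factors, *Sp8*, which is needed by interneurons bound for the olfactory bulb, was the most even within the NSCHRas-shp53 GBMs. It had 2, 0, 1 and 3 counts in NPCTKO samples 1 to 4, which is at or under the floor, and 174, 224 and 257 counts in NSCHRas-shp53 samples 1 to 3. In CPM these were 0.134, 0, 0.0520 and 0.181 against 9.49, 11.3 and 11.1. Every NSCHRas-shp53 sample thus stood far above every NPCTKO sample, and the 3 lay within 1.20-fold of each other. The ratio of the summed counts was 113 (95% exact counting interval 51.8 to 309.8), and the log2 fold change was 6.72 ± 0.71 (SE, adjusted p = 0.0028 from edgeR). The FPKM values, at 0.0312, 0, 0 and 0.0469 against 2.37, 2.48 and 2.73, gave the same order of the models (difference of 1.79 ± 0.16 in log2(FPKM + 1), adjusted p = 0.00097 from limma, which called 9.56% of 13505 genes higher and 6.40% lower). *Sp8* was called higher in each of the 17 alternative settings run on it. Since it passed the count and FPKM filters only through the NSCHRas-shp53 samples, being tested under them already meant a difference.

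*Sp9*, the close relative of *Sp8* that acts in striatal projection neurons and cortical interneurons, was lower and less even. Its counts were 4, 4, 8 and 3 in NPCTKO and 14, 83 and 28 in NSCHRas-shp53 samples, or 0.269, 0.311, 0.416 and 0.181 CPM against 0.764, 4.204 and 1.21 CPM. The models did not overlap, and sample 2 was 5.504 times sample 1 within the NSCHRas-shp53 group. The log2 fold change was 2.77 ± 0.71 (SE, adjusted p = 0.039 from edgeR). This call was lost without NPCTKO sample 1, 2 or 4 (adjusted p = 0.084, 0.078 and 0.076 from edgeR) and without NSCHRas-shp53 sample 2 or 3 (adjusted p = 0.18 and 0.091 from edgeR), and without sample 2 the log2 fold change was 1.72. Without NPCTKO samples 1 and 2 together the adjusted p was 0.098 from edgeR.

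The Dlx genes, which lie in pairs and drive the GABAergic program, were low in both models. *Dlx1* was at 0.0686, 0.102, 0.150 and 0.0907 FPKM in NPCTKO and at 0.767, 0.680 and 0.358 FPKM in NSCHRas-shp53 samples. The models did not overlap, which held in this direction for 14.4% of the 17758 genes with any FPKM. The whole span of *Dlx1* is shared with *Dlx1as* on the opposite strand. As the libraries were made without strand, the FPKM of *Dlx1* may include reads of *Dlx1as*. *Dlx1* stayed under the filter of 0.5 FPKM in 3 libraries. Without that filter its difference in log2(FPKM + 1) was 0.53 ± 0.10 (SE, adjusted p = 0.015 from limma), where 7.62% of genes were called higher. In that fit *Sp9* (0.64 ± 0.23), *Dlx2* (0.30 ± 0.19) and *Dlx5* (0.07 ± 0.29), which the filter also leaves out, were not called (adjusted p = 0.12, 0.36 and 0.91 from limma).

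*Dlx2*, the neighbour of *Dlx1*, had 3, 5, 16 and 15 counts in NPCTKO and 18, 52 and 10 counts in NSCHRas-shp53 samples, or 0.201, 0.389, 0.832 and 0.905 CPM against 0.982, 2.63 and 0.432 CPM. NSCHRas-shp53 sample 3 lay within the NPCTKO range, and the log2 fold change of 1.18 ± 0.76 was not called (adjusted p = 0.33 from edgeR). *Dlx5*, of the other Dlx pair, had 5, 14, 14 and 2 counts against 0, 38 and 5 counts, or 0.336, 1.09, 0.728 and 0.121 CPM against 0, 1.92 and 0.216 CPM. NSCHRas-shp53 sample 2 was the highest and sample 1 the lowest of all 7, where a count of 0 allows up to 0.164 CPM. The log2 fold change of *Dlx5* was 0.33 ± 1.21 (adjusted p = 0.89 from edgeR), and it fell below 0 without NPCTKO sample 4 (-0.0075) and without NSCHRas-shp53 sample 2 (-2.24).

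The pallial factors were the most abundant of the members. *Emx2* had 27, 12, 50 and 35 counts in NPCTKO and 407, 963 and 862 counts in NSCHRas-shp53 samples, or 1.81, 0.934, 2.60 and 2.11 CPM against 22.2, 48.8 and 37.2 CPM. The lowest NSCHRas-shp53 sample was far above the highest NPCTKO sample. The means were 1.86 ± 0.700 CPM (SD, n = 4) and 36.1 ± 13.3 CPM (SD, n = 3), with a log2 fold change of 4.26 ± 0.47 (SE, adjusted p = 0.0032 from edgeR). In FPKM it was 0.637, 0.327, 0.993 and 0.756 against 8.22, 19.1 and 14.9 (difference of 3.11 ± 0.32 in log2(FPKM + 1), adjusted p = 0.0012 from limma). *Emx2* was called higher in each of the 17 alternative settings.

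*Lhx2*, which keeps cortical precursors and is used by stem cells and astrocytes, was the member that NPCTKO GBMs expressed most. It had 195, 100, 289 and 197 counts in NPCTKO and 687, 927 and 914 counts in NSCHRas-shp53 samples, or 13.1, 7.78, 15.0 and 11.9 CPM against 37.5, 46.9 and 39.5 CPM. Every sample of both models was well above the floor, and the models did not overlap. The means were 11.9 ± 3.06 CPM (SD, n = 4) and 41.3 ± 4.99 CPM (SD, n = 3), and the log2 fold change of 1.79 ± 0.32 was the smallest among the called members (SE, adjusted p = 0.012 from edgeR). The call was lost without NSCHRas-shp53 sample 2 or 3 (adjusted p = 0.058 and 0.055 from edgeR), with log2 fold changes of 1.69 and 1.83. In FPKM, at 5.61, 3.71, 7.79 and 5.88 against 17.7, 31.4 and 19.9, the difference in log2(FPKM + 1) was 1.82 ± 0.31 (SE, adjusted p = 0.0070 from limma).

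Among the anterior factors, *Otx2* was all but absent from the NPCTKO libraries, with 0, 0, 0 and 1 counts, and had 21, 79 and 89 counts in NSCHRas-shp53 samples. A count of 0 allows up to 0.156 to 0.234 CPM in these NPCTKO samples, against 1.15, 4.00 and 3.84 CPM measured in NSCHRas-shp53 samples. The models did not overlap, and NSCHRas-shp53 sample 1 was the lowest of the 3. The ratio of the summed counts was 196 (95% exact counting interval 34.8 to 7786, which leaves out the spread between samples), and the log2 fold change was 7.05 ± 0.97 (SE, adjusted p = 0.0056 from edgeR). *Otx2* passed the count filter only through the NSCHRas-shp53 samples, so that being tested already meant a difference. *Otx2* is also a factor of the choroid plexus, whose main product *Ttr* was at 0.109, 0.101 and 417 CPM in NSCHRas-shp53 samples 1 to 3. *Ttr* reached the cutoff of the count filter in 3 NPCTKO samples and in 1 NSCHRas-shp53 sample. The summed choroid plexus markers overlapped between the models, at 209 to 390 CPM in NPCTKO and 134 to 735 CPM in NSCHRas-shp53 samples. The part of the choroid plexus in the level of *Otx2* was not tested. *Otx2* stayed under the FPKM filter of 0.5 in 3 libraries. Without that filter its difference in log2(FPKM + 1) was 0.93 ± 0.21 (SE, adjusted p = 0.032 from limma).

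*Six3*, which marks the anterior neural plate and later ventral precursors, had 11, 27, 4 and 23 counts in NPCTKO and 205, 785 and 126 counts in NSCHRas-shp53 samples. In CPM these were 0.739, 2.102, 0.208 and 1.39 against 11.2, 39.8 and 5.44. The models did not overlap, although *Six3* spread 10.1-fold within NPCTKO and 7.31-fold within NSCHRas-shp53 samples. The log2 fold change was 4.09 ± 0.90 (SE, adjusted p = 0.023 from edgeR). The call was lost without NPCTKO sample 1 (adjusted p = 0.054 from edgeR) and without NSCHRas-shp53 sample 2, where the log2 fold change was 2.91 (adjusted p = 0.11 from edgeR). In FPKM, at 0.205, 0.469, 0.0575 and 0.429 against 3.24, 11.5 and 1.70, the difference was 2.03 ± 0.47 in log2(FPKM + 1) (SE, adjusted p = 0.023 from limma), which was lost without NPCTKO sample 1 (adjusted p = 0.053 from limma) and without samples 1 and 2 together (adjusted p = 0.059 from limma). Without any 1 NSCHRas-shp53 sample, *Sp8* and *Six3* fell under the FPKM filter and 2 members in place of 4 were called by limma. Both genes passed that filter only through the NSCHRas-shp53 samples, so that being tested by limma already meant a difference for them.

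**Figure D2:**
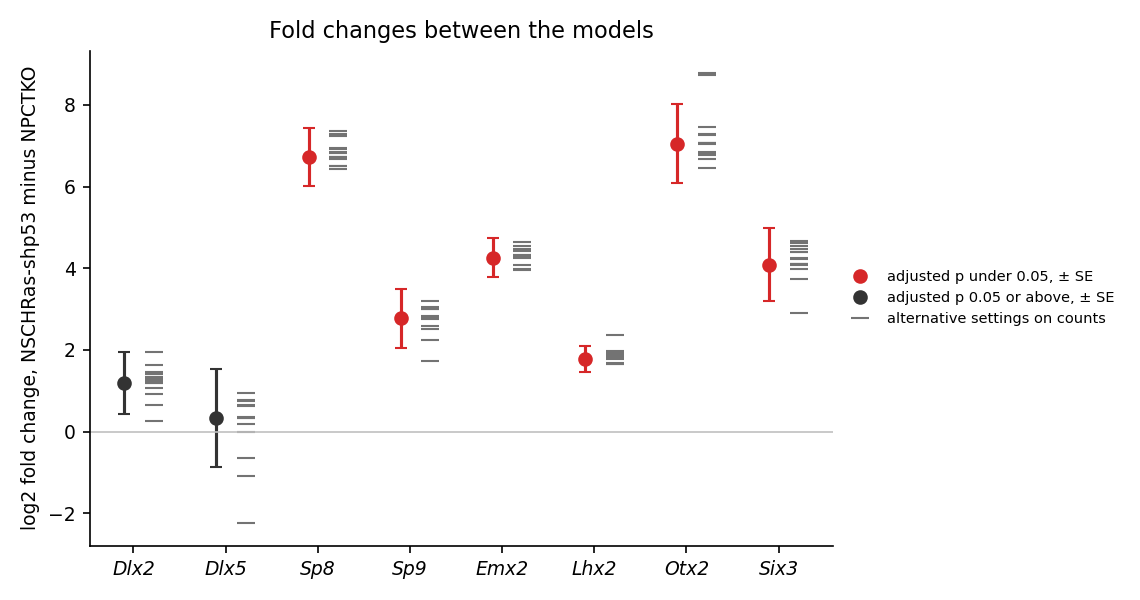
Log2 fold change of the 8 members with counts (vertical axis, NSCHRas-shp53 minus NPCTKO), as a point with its SE from edgeR and grey dashes for each alternative setting on the counts. *Sp8*, *Otx2* and *Emx2* stayed far above 0 in each setting, and *Dlx5* reached from -2.24 to 0.94.

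The antisense genes of *Six3* and *Emx2* were also called higher. *Six3os1* had 1, 5, 2 and 7 counts in NPCTKO and 216, 812 and 65 counts in NSCHRas-shp53 samples (log2 fold change 6.22, adjusted p = 0.0098 from edgeR), and it was called in each of 17 alternative settings. It passed the filter only through the NSCHRas-shp53 samples, among which its order was that of *Six3*, with sample 2 highest and sample 3 lowest. In NPCTKO samples the highest was sample 4 for *Six3os1* and sample 2 for *Six3*. *Emx2os* was at 1.14, 0.311, 4.26 and 2.23 CPM against 6.00, 22.2 and 23.1 CPM (log2 fold change 3.09, adjusted p = 0.043 from edgeR), a call that held in 7 of 17 settings and was lost without any sample other than NPCTKO sample 3. *Dlx6os1*, the long RNA over *Dlx6*, was at 0.403 to 1.72 CPM in NPCTKO and 0.810 to 1.47 CPM in NSCHRas-shp53 samples and was not called (log2 fold change 0.12, adjusted p = 0.92 from edgeR). *Dlx1as* and *Otx2os1* stayed at or under 0.389 CPM in every sample and *Dlx6os2* had no counts. Since the libraries were made without strand, reads of *Six3* and *Six3os1* where they overlap cannot be told apart. In the counts, all 11015 genes wholly inside another gene had 0, so such shared reads appear to be left out there.

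Per transcript length, *Lhx2* was the highest member in each of the 7 libraries. In NSCHRas-shp53 samples the mean FPKM fell in the order *Lhx2* (23.0 ± 7.36, SD, n = 3), *Emx2* (14.1 ± 5.47), *Six3* (5.47 ± 5.26), *Sp8* (2.53 ± 0.185), *Otx2* (0.995 ± 0.636), *Sp9* (0.716 ± 0.731), *Dlx1* (0.602 ± 0.216), *Dlx2* (0.541 ± 0.445) and *Dlx5* (0.486 ± 0.699). Only *Sp8* and *Otx2* were neighbours whose ranges did not overlap, and *Sp8* lay within the range of *Six3*. In NPCTKO samples the order was *Lhx2* (5.75 ± 1.67, SD, n = 4), *Emx2* (0.678 ± 0.277), *Dlx5* (0.345 ± 0.264), *Six3* (0.290 ± 0.194), *Dlx2* (0.227 ± 0.155), *Dlx1* (0.103 ± 0.0345), *Sp9* (0.0406 ± 0.0184), *Sp8* (0.0195 ± 0.0234) and *Otx2* (0.00790 ± 0.0158). There the neighbours without overlap were *Lhx2* and *Emx2*, and *Dlx1* and *Sp9*. *Sp8* was thus the fourth member in NSCHRas-shp53 and the next to last in NPCTKO samples by mean FPKM.

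Within the NSCHRas-shp53 GBMs the 8 members with counts shared their highest sample in CPM, sample 2, but by very different factors. *Dlx2*, *Dlx5*, *Sp9*, *Six3* and *Six3os1* were there at 3.73, 17.8, 4.26, 4.78 and 5.64 times the mean CPM of the other 2 samples. *Emx2* and *Otx2* were at 1.64 and 1.60 times and *Sp8* and *Lhx2* at 1.10 and 1.22 times that mean in the same sample, and *Dlx1* at 1.21 times in FPKM. By FPKM sample 3 was the highest for *Sp8*. *Dlx1* and *Dlx2*, which are neighbours, thus had different highest samples, sample 1 and sample 2. Sample 1 lay below the mean CPM of the others for each of these 8, at 0.292 times for *Otx2*, 0.516 times for *Emx2* and 0.867 times for *Lhx2*.

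The marker lists moved apart between these samples as well. In sample 2 the summed CPM of striatal projection neuron markers was 2.28 times and that of GABAergic neuron markers 1.70 times the mean of the other 2 samples, whereas pan-neuronal markers were at 0.667 times and excitatory neuron markers at 0.301 times. *Penk*, a striatal neuropeptide gene, was at 16.3, 66.2 and 21.5 CPM in NSCHRas-shp53 samples 1 to 3, and *Npy*, an interneuron neuropeptide, at 8.57, 28.2 and 53.7 CPM. *Nrgn*, of excitatory neurons, was at 323, 87.2 and 74.5 CPM. The part of the neurons of each sample in the spread of *Dlx2*, *Dlx5*, *Sp9* and *Six3* was not tested. In a bulk library fewer cells of a type and less RNA per cell cannot be told apart.

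**Figure D3:**
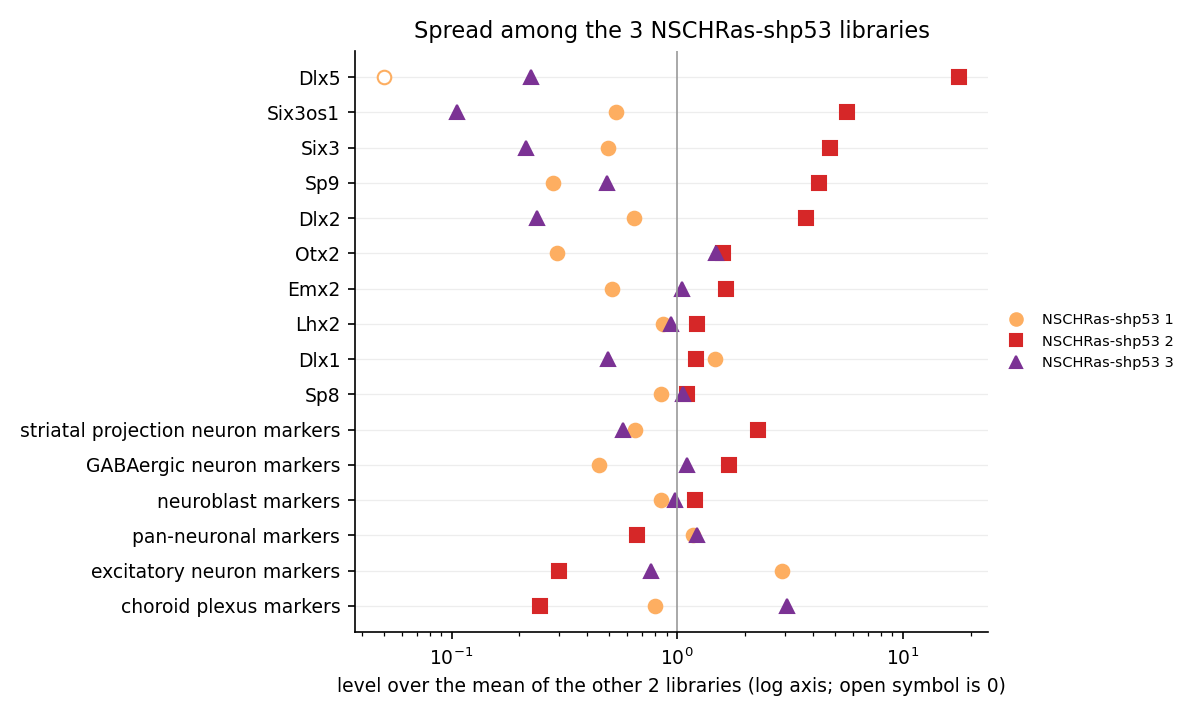
Level of each factor (*Dlx1* in FPKM, the others in CPM) and of each marker list (summed CPM) in a NSCHRas-shp53 library over the mean of the other 2 libraries (log axis), with a symbol per library. Sample 2 was 3.73 to 17.8 times the others for *Dlx2*, *Sp9*, *Six3*, *Six3os1* and *Dlx5*, and *Sp8* and *Lhx2* lay near 1 in each library.

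Other subpallial factors went both ways. Of 20 such genes 16 were tested, 2 were called higher and 2 lower, with a median log2 fold change of -0.31. *Lhx6*, of interneurons from the medial ganglionic eminence, was at 0 to 0.422 CPM in NPCTKO and 2.35, 9.98 and 16.3 CPM in NSCHRas-shp53 samples (log2 fold change 5.19, adjusted p = 0.013 from edgeR), and passed the filter only through the latter, so that being tested already meant a difference. *Gsx2*, a factor of early ventral precursors that lies upstream of the Dlx genes, stood the other way, at 2.35 to 5.30 CPM against 0.0863 to 0.506 CPM (log2 fold change -3.56, adjusted p = 0.016 from edgeR). *Tshz1*, *Meis2*, *Foxp1* and *Etv1* were at a mean of at least 50 CPM in some model and were not called (log2 fold changes 1.07, 1.27, -0.35 and -0.28, adjusted p = 0.12 to 0.77 from edgeR). *Lhx6* was lost without NSCHRas-shp53 sample 2 or 3 and *Gsx2* without sample 1, 2 or 3 (adjusted p = 0.051 to 0.068 from edgeR), which left 1 higher gene on the list without sample 2 or 3 and 0 or 1 lower gene without sample 1, 2 or 3.

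Pallial and other forebrain factors were called in 1 direction by edgeR. Of 14 pallial factors tested, 3 were called higher and 0 lower (median log2 fold change 0.92), and of 8 other forebrain factors tested, 4 were called higher and 0 lower (median 1.42). Lower were 1 and 0 of these at an unadjusted p under 0.05 from edgeR, and 1 and 2 by DESeq2. *Emx1*, the relative of *Emx2* in cortical precursors and neurons, was at 0.336, 0.623, 0.416 and 1.03 CPM in NPCTKO and 4.42, 2.48 and 2.42 CPM in NSCHRas-shp53 samples (log2 fold change 2.36, adjusted p = 0.030 from edgeR). *Neurod2* and *Fezf2*, of cortical projection neurons, were higher by log2 6.99 and 4.46 (adjusted p = 0.0079 and 0.035 from edgeR) and passed the filter only through the NSCHRas-shp53 samples. *Otx1*, the relative of *Otx2*, was at 1.68, 0.856, 1.98 and 2.65 CPM against 6.38, 20.9 and 17.1 CPM (log2 fold change 3.04, adjusted p = 0.013 from edgeR). Its lowest NSCHRas-shp53 sample was sample 1, as for *Otx2*. *Nr2f2*, of caudal and ventral forebrain, and *Nr2e1*, of adult neural stem cells, rose by log2 3.60 and 1.44 (adjusted p = 0.013 and 0.022 from edgeR). *Pax6* (1.84, adjusted p = 0.051 from edgeR), *Mef2c*, *Cux1* and *Nr2f1* (1.11, 0.23 and -0.01, adjusted p = 0.12, 0.57 and 0.99 from edgeR) were not called.

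Most of these calls depended on the setting. *Neurod2* was called in each of 17 alternative settings, *Nr2f2* in 16, *Otx1* in 14, *Nr2e1* in 12, *Fezf2* in 10 and *Emx1* in 9. For *Neurod2* and *Fezf2*, which passed the filter only through the NSCHRas-shp53 samples, being tested under it already meant a difference. The pallial list had 1 higher gene without NPCTKO sample 1 or NSCHRas-shp53 sample 1 or 3. The other forebrain list had 2, 1 and 0 higher genes without NSCHRas-shp53 sample 1, 2 and 3, and leaving out 1 of these samples lowered the number of genes called over the whole table from 2101 to between 539 and 938.

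Among factors of the midbrain, hindbrain and spinal cord, NPCTKO GBMs, although made in the neocortex, had the higher levels of *En1*, *En2*, *Irx1*, *Irx2* and *Lmx1b*. Of 43 such genes 18 were at or under the floor in every sample, all of them Hox genes, of which 11 lie wholly inside another gene and get no counts here. By FPKM these 18 reached at most 3.09 in NPCTKO and 0.234 in NSCHRas-shp53 samples. Of the list 14 genes were tested, of which 5 were called lower in NSCHRas-shp53 samples and 1 higher (median log2 fold change -1.47). Of these 14, 5 had a positive log2 fold change. Besides the gene called higher they were *Gata3*, *Hoxb4*, *Gbx2* and *Pax5* (2.26, 0.96, 0.61 and 0.03), which were not called. *En2*, the engrailed factor of the midbrain-hindbrain boundary, was at 78.0, 57.9, 60.4 and 57.1 CPM in NPCTKO and 1.64, 1.37 and 0.389 CPM in NSCHRas-shp53 samples (log2 fold change -5.81, adjusted p = 0.0026 from edgeR). *En1* was at 7.12, 5.61, 18.0 and 11.4 CPM against 0.0546, 0.203 and 0.259 CPM (log2 fold change -5.86, adjusted p = 0.0045 from edgeR). *Irx2*, an Iroquois factor, was at 40.7, 31.5, 24.1 and 44.0 CPM against 0.655, 1.47 and 0.734 CPM (log2 fold change -5.19, adjusted p = 0.0026 from edgeR). These 3 were called in each of 17 alternative settings, and the models did not overlap. *En1*, unlike *En2* and *Irx2*, passed the filter only through the NPCTKO samples, so that being tested already meant a difference.

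*Irx1* was at 72.8, 68.2, 33.5 and 57.7 CPM in NPCTKO and 9.98, 2.38 and 3.84 CPM in NSCHRas-shp53 samples (log2 fold change -3.43, adjusted p = 0.010 from edgeR), and *Lmx1b*, of dopaminergic and serotonergic neurons, at 2.96 to 11.6 CPM against 0 to 0.253 CPM (log2 fold change -5.94, adjusted p = 0.011 from edgeR), where *Lmx1b* passed the filter only through the NPCTKO samples. Without NSCHRas-shp53 sample 3 both were lost (adjusted p = 0.060 and 0.068 from edgeR), which left 3 lower genes. The gene called higher was *Phox2a*, of noradrenergic and hindbrain motor neurons, named after its values were seen, with 0 counts in each NPCTKO and 15, 44 and 26 counts in NSCHRas-shp53 samples, a call that was lost without sample 2 or 3 (adjusted p = 0.062 and 0.065 from edgeR). It passed the filter only through the NSCHRas-shp53 samples, which fixed its direction. The summed level of the list was 174 to 238 CPM in NPCTKO and 30.9 to 38.8 CPM in NSCHRas-shp53 samples.

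**Figure D4:**
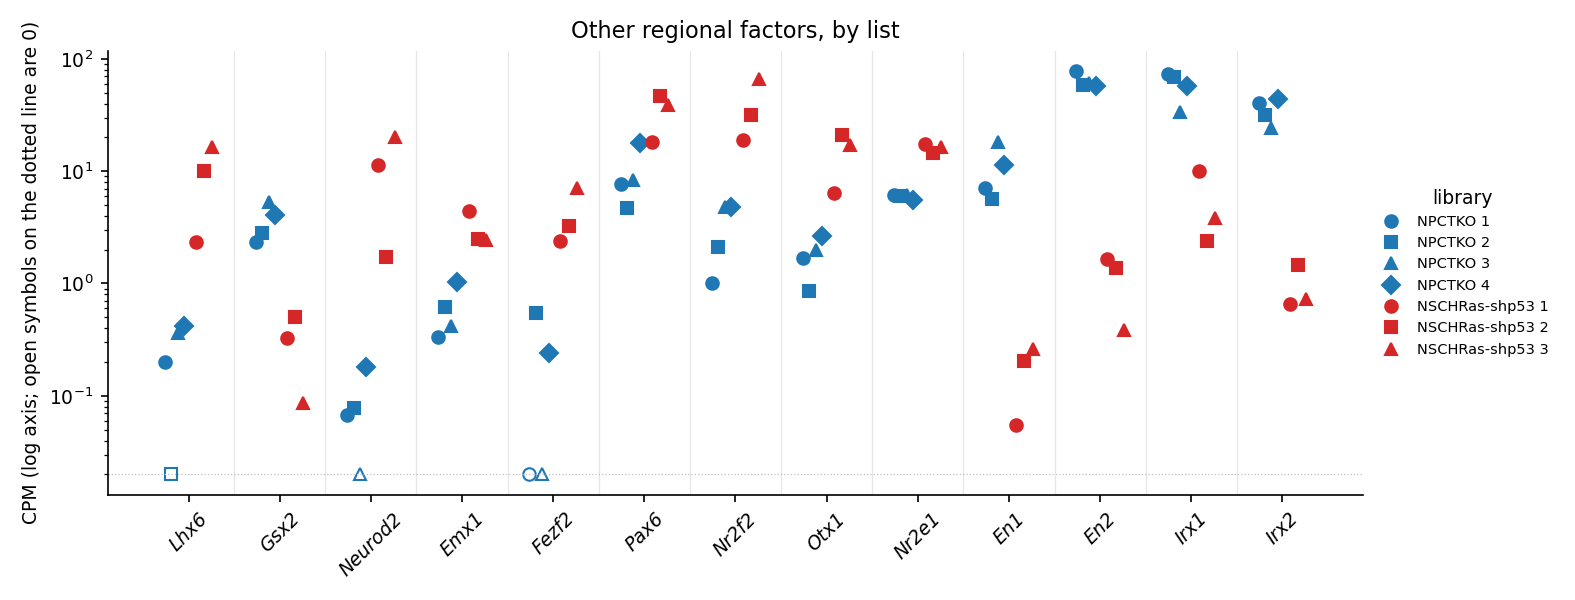
CPM (log axis) of 13 other regional factors in each library, NPCTKO in blue and NSCHRas-shp53 in red, with open symbols for 0. From left to right are 2 subpallial, 4 pallial, 3 other forebrain and 4 midbrain-hindbrain factors. *En1*, *En2*, *Irx1* and *Irx2* had all blue symbols above the red ones, in contrast to *Neurod2*, *Nr2f2*, *Otx1* and *Nr2e1*.

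Markers of cell types that express these factors also differed between the models. Of 11 astrocyte markers tested, 7 were called higher (median log2 fold change 4.31), and their summed level was 99.5 to 401 CPM in NPCTKO and 2241 to 2774 CPM in NSCHRas-shp53 samples. *Gjb6*, 1 of the 7, passed the filter only through the NSCHRas-shp53 samples, so that being tested already meant a difference. *Slc39a12* and *Slc1a2*, both transporters of astrocytes, rose by log2 5.54 and 4.72 (adjusted p = 0.0028 and 0.0051 from edgeR), and *Aldoc* was the highest of the list by FPKM. Of 10 neural stem cell markers tested, 5 were called higher (median 1.29), with *Slc1a3* at 2.66 and *Prom1* at 1.41 (adjusted p = 0.011 and 0.022 from edgeR), at a sum of 745 to 1460 against 2981 to 3579 CPM. *Fabp7* was their highest by FPKM. Of these 10, 8 had a positive log2 fold change, whereas *Hes5* and *Tnfrsf19* stood the other way without being called (-1.94 and -0.08). *Sox2* and *Gfap*, with no counts, were at 71.0 to 134 against 51.1 to 111 FPKM and at 19.1 to 86.9 against 716 to 1096 FPKM. Without NPCTKO sample 1 or 2 the stem cell list had 2 and 3 higher genes, and without any of the NSCHRas-shp53 samples it had 1.

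Neuronal lists held called genes as well, from 1 of 10 striatal to 8 of 9 excitatory neuron markers. Of 11 GABAergic neuron markers tested 4 were called higher (median log2 fold change 1.53; *Pvalb* 3.68 and *Sst* 5.54, adjusted p = 0.012 and 0.019 from edgeR, both tested only through the NSCHRas-shp53 samples). Of 10 striatal markers 1 was called (median 1.17), while *Penk* was at 2.47 (adjusted p = 0.051 from edgeR). Of 9 excitatory neuron markers 8 were called (median 4.04; *Nptx1* 2.78 and *Sv2b* 4.57, adjusted p = 0.0044 and 0.0052 from edgeR), at a sum of 45.3 to 80.4 CPM in NPCTKO and 369 to 1673 CPM in NSCHRas-shp53 samples. Of 9 pan-neuronal markers 5 were called (median 2.94), *Slc12a5* and *Syt1* among them, at a sum of 195 to 663 against 615 to 936 CPM. Of 9 neuroblast markers 5 were called (median 2.24; *Igfbpl1* 3.69 and *Prokr2* 6.41, adjusted p = 0.0037 and 0.0068 from edgeR, the latter tested only through the NSCHRas-shp53 samples), and *Cd24a* was their highest by FPKM. Of these 9, 6 had a positive log2 fold change, whereas *Dcx*, *Sox11* and *Tubb2b* stood the other way without being called (-1.68, -1.34 and -0.91). The sums of the GABAergic (61.1 to 134 against 92.0 to 229 CPM), striatal (96.5 to 184 against 117 to 280 CPM) and neuroblast lists (582 to 1031 against 668 to 842 CPM) overlapped between the models. Over these astrocyte, stem cell and neuronal lists 0 genes were called lower by edgeR, with 1 GABAergic and 1 neuroblast marker lower at an unadjusted p under 0.05 and 1 GABAergic marker lower by DESeq2. Without NPCTKO samples 1 and 2 together, edgeR called 2 neuroblast markers and 1 GABAergic marker lower. With GC and length offsets it called 2 neuroblast markers lower.

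Leaving out 1 sample changed several of these counts. The GABAergic list had 1 called gene without NSCHRas-shp53 sample 2 or 3. The neuroblast and pan-neuronal lists had 3 each without any 1 of the NSCHRas-shp53 samples, and the excitatory list had 5 without NPCTKO sample 1 or NSCHRas-shp53 sample 1. The striatal list had 0 without NPCTKO sample 1 or NSCHRas-shp53 sample 1 or 2 and 2 without sample 3. *Vip* and *Slc17a6* had no counts in any NPCTKO sample and only 28 and 65 counts over all samples. *Gad1* was at or above the cutoff of the count filter in 4 NPCTKO samples and *Slc17a7* in 2. Of the 11 GABAergic markers tested, 8 had a positive log2 fold change, whereas *Reln*, *Calb2* and *Adarb2* stood the other way without being called (-2.18, -1.05 and -0.85). *Tubb3* and *Nefl* lie wholly inside another gene and were read as FPKM. *Tubb3* reached 72.6 FPKM in NPCTKO and 81.1 FPKM in NSCHRas-shp53 samples, and *Nefl* was at 0.0820 to 4.39 FPKM in NPCTKO and 29.2 to 139 FPKM in NSCHRas-shp53 samples. The part of astrocytes, stem cells and neurons of the whole tissue in the higher *Emx2*, *Lhx2*, *Sp8* and *Six3* was not tested.

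Choroid plexus and ependymal lists, of cells that line the ventricles, differed in how far the models were apart. Of 8 choroid plexus markers tested 1 was called higher (median 1.80), *Aqp1* at 2.47 (adjusted p = 0.036 from edgeR), and *Clic6* was at 3.46 (adjusted p = 0.073 from edgeR). *Kcnj13*, which lies inside another gene, was at most at 0.152 FPKM in NPCTKO and 2.18 FPKM in NSCHRas-shp53 samples. Of 6 ependymal markers 2 were called higher (median 1.89), *Tmem212* at 3.74 and *Rarres2* at 2.61 (adjusted p = 0.019 and 0.039 from edgeR). All 6 had a positive log2 fold change, and DESeq2 called 5 of them higher. Their sum did not overlap between the models, at 8.53 to 21.7 CPM in NPCTKO and 38.3 to 82.5 CPM in NSCHRas-shp53 samples. The part of the ependyma in the level of the members was not tested. *Aqp1* was lost without NPCTKO sample 1 or without any NSCHRas-shp53 sample. The ependymal list had 1 gene without NPCTKO sample 2 or 4 or NSCHRas-shp53 sample 1, and 0 without NSCHRas-shp53 sample 2 or 3. OPC markers went the other way, with 5 of 7 called lower (median -2.12; *Cacng4* -2.48 and *Cspg4* -3.31, adjusted p = 0.0051 and 0.0076 from edgeR) and *Olig1* the highest by FPKM, at a sum of 2645 to 5761 CPM in NPCTKO and 553 to 998 CPM in NSCHRas-shp53 samples. Without NSCHRas-shp53 sample 1, 2 and 3 this list had 3, 2 and 2 lower genes.

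**Figure D5:**
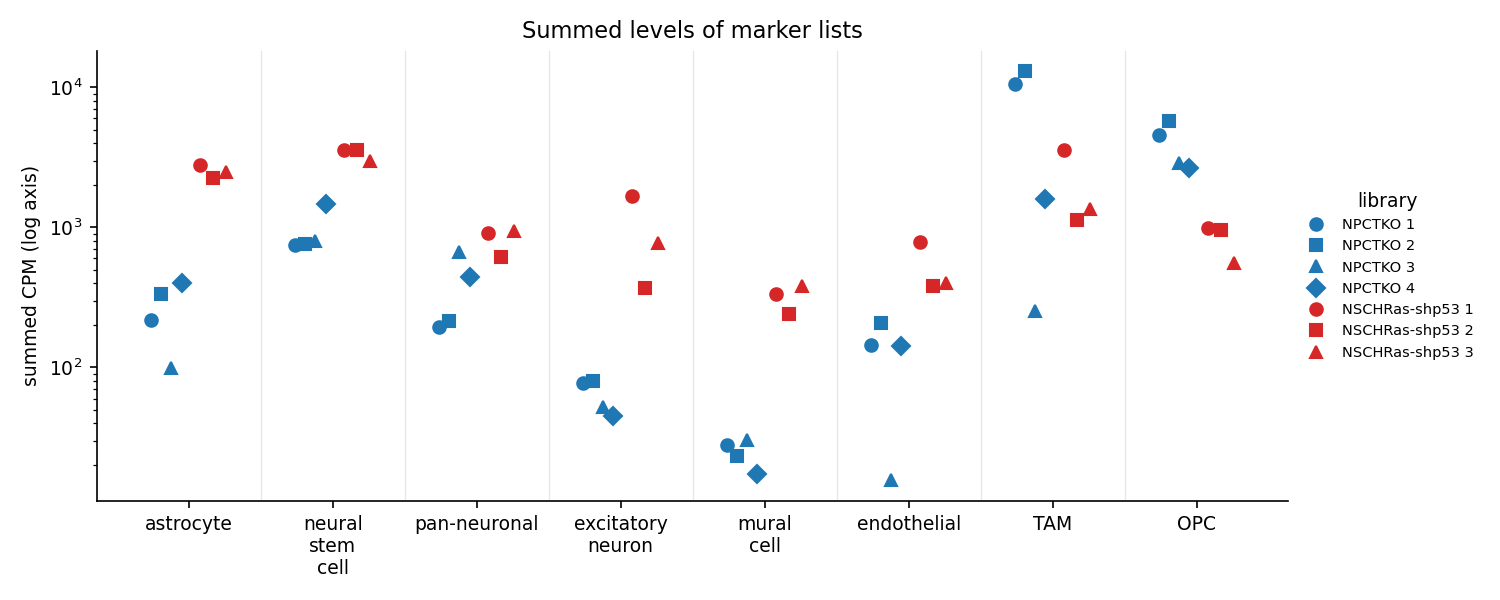
Summed CPM (log axis) of 8 marker lists in each library, NPCTKO in blue and NSCHRas-shp53 in red, with a symbol per replicate number. The sums of astrocyte, neural stem cell, excitatory neuron, mural and endothelial cell markers were higher in each NSCHRas-shp53 library, that of OPC markers was lower, and those of pan-neuronal and TAM markers overlapped.

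The genes whose pattern was most like that of each member were found by Pearson's r in log2(CPM + 1) over the 7 libraries, among about 12258 genes with a mean of at least 5 CPM, as a description in which the points share the step between the models. They were *Phkg1* and *Slc35a5* for *Sp8* (both r = 0.998), *Foxs1* (r = 0.998) and a transcript with a clone name (r = 0.996) for *Otx2*, *Csdc2* and *Atp1b2* for *Emx2* (r = 0.997 and 0.996) and *Itga11* and *Trim16* for *Lhx2* (r = 0.991 and 0.990). *Cyb5r3* and the antisense gene *Six3os1* were nearest to *Six3* (r = 0.981 and 0.980), *Gpr83* and *Ctnnd1* to *Sp9* (r = 0.995 and 0.981), and 1110059G10Rik and *Ybx3* to *Dlx2* (r = 0.971 and 0.962). *Gpr83* showed the high sample 2 of *Sp9*, at 3.11, 64.5 and 5.05 CPM in NSCHRas-shp53 samples 1 to 3 and 0.336 to 0.832 CPM in NPCTKO samples. *Foxs1* showed the low sample 1 of *Otx2*, at 4.09, 19.9 and 19.8 CPM against 0.0603 to 0.269 CPM.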

How the data were processed

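Bulk RNA-seq of 4 NPCTKO and 3 NSCHRas-shp53 samples was analysed. The authors deposited whole-number counts for each gene. They had trimmed the reads with Cutadapt (1.16 in the submitters' processing notes) and mapped them to mm10 with TopHat2 2.1.1, and no source used here names the counting tool. The authors deposited FPKM values from Cufflinks 2.2.1 as well. The labels name a non-directional kit. Of 28538 FPKM rows, 3767 without a name were left out, and rows with 1 gene name were summed to 22416 genes. Of the genes in the count table, 11015 lie wholly inside another gene and have 0 counts in all 7 libraries.

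Genes were compared with edgeR 4.0.16 (quasi-likelihood test after filterByExpr and TMM factors, two-sided, Benjamini-Hochberg adjusted) in R 4.3.3, and FPKM with limma 3.58.1 on log2(FPKM + 1) for genes of at least 0.5 FPKM in 3 libraries, which understates the change of low genes. DESeq2 1.42.0, other size factors and filters, a pseudocount of 0.1, GC and length offsets, a replicate block and leaving out samples were alternatives. The edgeR and limma fits were tested on simulated data. Counting intervals are exact (Clopper-Pearson) and cover counting error only. They were taken only for members with at most 3 counts in every NPCTKO sample, which favours large ratios. Python 3.11.15 and matplotlib 3.10.9 drew the figures.

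The members and gene lists were chosen with earlier results of these data known. Named are the members, the targeted genes, antisense partners, from each list of regional factors the 4 genes with the smallest p and those with a mean of at least 50 CPM, from each marker list the 2 with the smallest p and, where its sum is given, its highest by FPKM, and the 2 genes most like each member with a mean of at least 1 CPM in either model. Some genes that this rule names are not reported here.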

Additional observations from a re-analysis of the deposited data

Results flagged for a closer look

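Of 37 groups of 4 NPCTKO values examined (members and summed marker lists), 5 had 1 sample far from the others by Dixon's criterion. Chance meets it in about 1 in 20 groups of independent values with a normal spread. *Otx2* was above 0 only in NPCTKO sample 4, at 0.0603 CPM, which is 1 count, and at 0.0316 FPKM. It was flagged in both units, and as its other values were 0, that share does not apply to it. The summed pallial factors were at 226 CPM in NPCTKO sample 2 against 249 to 249.6 CPM in the others. The summed neural stem cell markers were at 1460 CPM in NPCTKO sample 4 against 745 to 798 CPM. The summed ependymal markers were at 8.53 CPM in NPCTKO sample 3 against 20.0 to 21.7 CPM. The causes were not tested.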

How the results depend on the processing

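*Sp8* and *Emx2* kept their direction and call in each of 17 alternatives and *Otx2* in each of 16, with log2 fold changes of 1.79 to 7.37, 3.11 to 4.65 and 6.47 to 8.77, where the lowest for *Sp8* and *Emx2* come from limma on log2(FPKM + 1). For *Sp8* and *Otx2*, being tested under a filter on low counts already meant a difference. *Dlx2* was called in none of 15. *Dlx5* reversed without being called under the replicate block (-1.09), under that block with GC and length offsets (-0.64), without NPCTKO replicate 4 (-0.0075) and without NSCHRas-shp53 replicate 2 (-2.24), and leaving out 1 sample took it up to 0.94. Leaving out 1 sample gave 539 to 2595 genes called against 2101 with all samples, 415 to 1387 against 1251 higher and 124 to 1208 against 850 lower, the lowest without NSCHRas-shp53 replicate 3 and the highest without NPCTKO replicate 3. Members called were 3 in place of 6 without NSCHRas-shp53 replicate 2, and 2 in place of 4 in FPKM without any NSCHRas-shp53 replicate. DESeq2 called 4044 genes (2183 higher, 1861 lower), and library totals without TMM factors called 540 lower. Same-numbered samples of the models had correlated deviations of 0.279, -0.193 and 0.193, so the numbers were not taken as pairs. The replicate block called 1041 genes (718 higher, 323 lower), 473 lower with GC and length offsets, and it ended the calls of *Sp9* and *Lhx2* (adjusted p = 0.15 and 0.061 from edgeR). The other causes were not tested. At this depth *Dlx2*, *Dlx5*, *Sp9* and, in NPCTKO samples, *Sp8* and *Otx2* rest on few counts.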

Other observations

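Markers of the vessel wall and of immune cells were read apart from the neural lists. Of 5 mural cell markers tested 3 were called higher in NSCHRas-shp53 GBMs (median log2 fold change 4.30; *Rgs5* 6.98 and *Pdgfrb* 4.44, adjusted p = 0.0039 and 0.0073 from edgeR), at a sum of 17.4 to 30.2 CPM in NPCTKO and 240 to 379 CPM in NSCHRas-shp53 samples, and 2 to 3 were called in the alternatives. *Kcnj8*, 1 of the 3, passed the filter only through the NSCHRas-shp53 samples, so that being tested already meant a difference. Of 5 endothelial markers 2 were called higher (median 1.89; *Flt1* 2.66 and *Tek* 2.71, adjusted p = 0.032 and 0.037 from edgeR), 0 genes without NPCTKO sample 1 or 2 or any NSCHRas-shp53 sample and 1 without NPCTKO sample 4. *Cldn5* was the highest endothelial marker by FPKM, and the list summed to 15.7 to 208 CPM in NPCTKO and 382 to 781 CPM in NSCHRas-shp53 samples.

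Markers of tumor-associated macrophages (TAM) summed to 10536, 13053, 253 and 1594 CPM in NPCTKO samples 1 to 4 and 1134 to 3560 CPM in NSCHRas-shp53 samples. NPCTKO samples 1 and 2, although sorted, thus lay above every NSCHRas-shp53 sample. They were also the samples that leaned towards GC-rich transcripts, and the cause was not tested. *C1qa* was at 133 to 8353 CPM in NPCTKO samples, and 0 of 6 tested genes were called (median -1.65; *C1qa* -2.07 and *Cd14* -1.66, adjusted p = 0.29 and 0.31 from edgeR). Of 6 oligodendrocyte (OLG) markers (median -0.29; *Mag* -1.47 and *Klk6* 1.06, adjusted p = 0.31 and 0.40 from edgeR) and 4 T cell markers (median 0.21; *Cd3g* 0.53 and *Cd3e* 0.31, adjusted p = 0.66 and 0.83 from edgeR) 0 were called. In these TAM, OLG and T cell lists 0 genes passed an unadjusted p under 0.05 in edgeR, and DESeq2 called 0.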
